A study of Danio rerio with 8 samples.

Results

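The genes described here are the ligands and receptors of the tumour necrosis factor (TNF) superfamily, measured in blood cells sorted from zebrafish kidney, the organ where adult fish form their blood. They were taken as all probe sets annotated with exactly 1 gene symbol that begins with tnfsf (ligands) or tnfrsf (receptors). This gave 21 of 75212 probe sets, which stand for 20 genes of the 19260 with a symbol of their own, 9 of them ligands and 11 receptors. The rule used names only and no measured value. A current RefSeq gene table lists 23 such symbols, and tnfrsf13b, tnfrsf17 and tnfsf14 were not analysed here.

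There were 4 groups of 2 arrays, all from fish at 60 days post fertilization, with no treatment named in the labels. The groups were wild-type myelomonocytes, knockout myelomonocytes, wild-type whole kidney marrow (WKM) without erythrocytes, and knockout WKM without erythrocytes. Whole marrow includes myelomonocytes, so the 2 populations are a part and a whole rather than separate cell types. The knockout, written 142ab-/- in the titles, is a miR-142-3p double knockout, and the labels give no other allele or transgene. The labels name no cell type to which the knockout is limited. By the series' design text, kidneys of 4 fish were used per sample and the 2 repeats were independent. Values are log2 probe set levels from a 1-colour whole-transcript array, and a difference of 1 is a 2-fold change.

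TNF superfamily ligands are mostly membrane-anchored or shed trimers that bind receptors on neighbouring cells. Receptors with an intracellular death domain can start apoptosis through the adaptor Fadd and caspase 8, while others recruit TRAF adaptors and switch on NF-kB, a family of transcription factors of immunity and cell survival. In blood-forming tissue the family is known for control of lymphocyte survival, co-stimulation, osteoclast formation and inflammation. Roles given below are those known from mouse and human genes unless zebrafish is named.

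Markers of the sorted cells were checked first. All 7 neutrophil markers measured, among them the myeloperoxidase gene mpx, were bright in every group, with a mean log2 level over the list of 12.74 to 12.78 on the myelomonocyte arrays and 12.27 to 12.43 on the WKM arrays. The 10 B cell markers lay at a mean of 6.76 to 6.97 in myelomonocytes and 9.06 to 9.68 in WKM. The 11 T and NK cell markers lay at 6.56 to 6.86 and 8.38 to 8.72. The 7 monocyte and macrophage markers were lower in myelomonocytes, at 8.90 to 9.59, than in WKM, at 9.69 to 10.04. Of these 7, 3 were lower and 1 higher there in wild type (limma, adjusted p under 0.05). In the knockout 5 were lower and 1 higher. Over all genes tested 35.6% and 44.1% passed in these comparisons. The 12 kidney tubule and podocyte markers lay at 7.76 to 8.30 in myelomonocytes and 7.23 to 7.63 in WKM. Erythroid markers were present in every group, with the red cell anion exchanger slc4a1a at 11.21 to 12.78 as group means, although erythrocytes were not part of either sort. Replicate arrays correlated at r = 0.988 to 0.992 over 13774 genes tested, which are not independent replicates. No probe set of the miR-142 genes was examined here, and no list of their targets was tested. The genotype was thus not checked on these arrays.

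Of the 20 genes, 17 reached a mean of 5.52 over the 8 arrays, the median of the probe set means, and were tested. The 3 others are ligand genes that stayed dim in every group. tnfsf13, which encodes the lymphocyte factor APRIL, lay between 4.47 and 4.97. tnfsf10l4, a relative of the apoptosis ligand gene tnfsf10, lay between 3.82 and 4.16. tnfsf10l3, of the same kind, lay between 4.60 and 5.52, highest on a wild-type myelomonocyte array. With no filter on dim genes tnfsf10l3 was called higher in wild-type myelomonocytes (mean 5.36) than in wild-type WKM (mean 4.82). In that fit 24.9% of all genes were called. Levels of different probe sets cannot be set against each other, so each gene is compared with itself only.

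**Figure D1:**
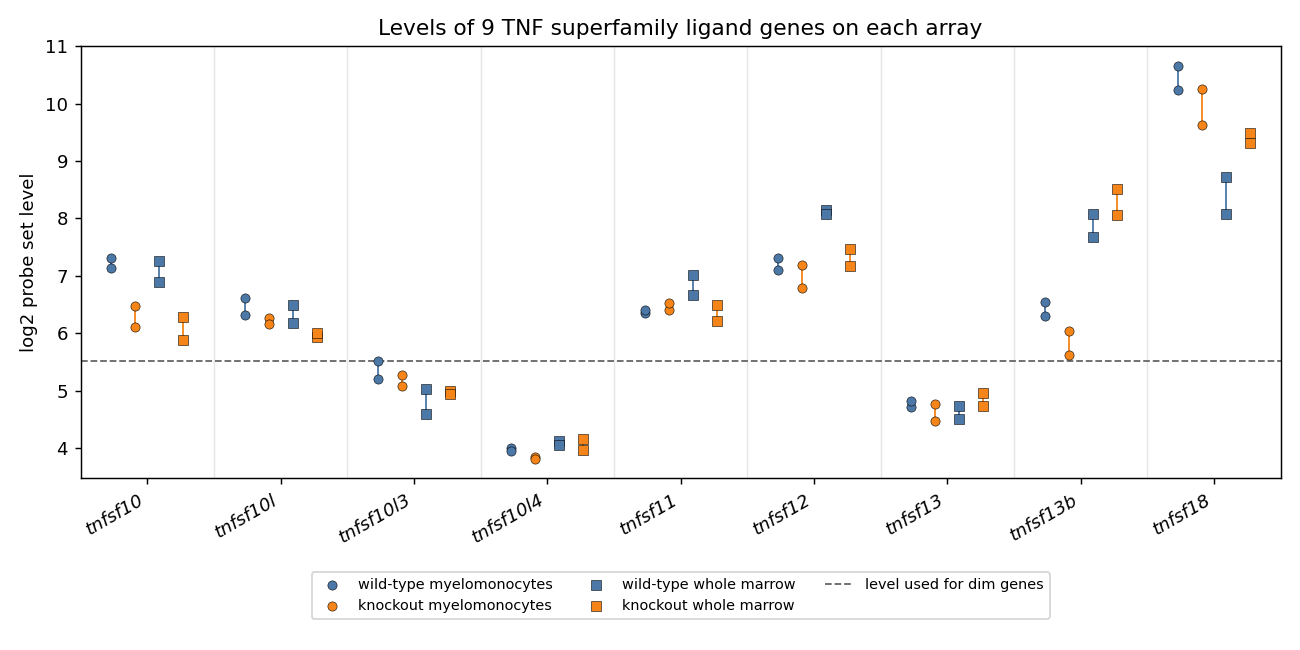
Each point is the log2 probe set level of a ligand gene on 1 array, with circles for myelomonocytes, squares for WKM, blue for wild type and orange for knockout, and a line joining the 2 arrays of a group. The dashed line is the level of 5.52 used for dim genes. tnfsf10 was lower on the 4 knockout arrays (5.88 to 6.48) than on the 4 wild-type arrays (6.90 to 7.32), and tnfsf18 had its highest group mean in wild-type myelomonocytes (10.24 and 10.66).

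Among the ligands, tnfsf10, which encodes the apoptosis ligand TRAIL, fell in knockout cells of both populations. Myelomonocytes are part of WKM, so the 2 falls need not be of separate cells. In myelomonocytes the wild-type arrays read 7.32 and 7.13 and the knockout arrays 6.48 and 6.11. In WKM they read 7.26 and 6.90 in wild type against 5.88 and 6.28 in the knockout. No knockout array reached any wild-type array in either population. With 2 arrays a group such separation is common. In either direction, the 2 genotypes did not overlap for 54.8% of all genes tested in myelomonocytes and 56.7% in WKM. The same was so for 9 of the 17 members tested in each. The change was -0.93 ± 0.19 (log2, SE) in myelomonocytes (limma, adjusted p = 0.0190) and -1.0 ± 0.19 in WKM (adjusted p = 0.0178), a fold of 1.90 and 2.01. These bulk values cannot tell fewer cells of a type from less RNA per cell. The myelomonocyte call did not survive leaving out either wild-type array or the knockout array of replicate 2 (differences of -1.02 to -0.74). The WKM call did not survive leaving out the replicate 1 array of either genotype. Its difference ran from -1.20 to -0.80 over 19 alternatives. Whenever 1 array of a compared group was left out, here and below, fewer genes passed over all genes tested.

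hdr, the zebrafish hematopoietic death receptor and a receptor of the TRAIL kind, is not caught by the naming rule but belongs beside tnfsf10. It fell in knockout myelomonocytes, from 7.05 ± 0.15 to 5.98 ± 0.09 (SD, n = 2), a change of -1.07 ± 0.18 (limma, adjusted p = 0.00980). Leaving out the wild-type array of replicate 1 ended the call (adjusted p = 0.0597). In WKM hdr read 9.22 ± 0.32 in wild type and 8.95 ± 0.28 in the knockout, a difference that did not pass (adjusted p = 0.418). hdr was also lower in myelomonocytes than in WKM, by a log2 difference of -2.17 in wild type (adjusted p = 0.000186) and -2.97 in the knockout (adjusted p = 4.6e-05).

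tnfsf10l, another ligand gene of the TRAIL kind, read 6.32 and 6.61 in wild-type and 6.26 and 6.17 in knockout myelomonocytes. Its WKM arrays read 6.18 and 6.50 against 5.93 and 6.01. The knockout arrays lay under the wild-type arrays in each population, but neither difference passed (-0.25 ± 0.14, adjusted p = 0.298, and -0.37 ± 0.14, adjusted p = 0.151, limma).

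tnfsf12, which encodes TWEAK, a ligand of tissue repair and inflammation, fell in knockout WKM. Wild-type WKM arrays read 8.15 and 8.08 and knockout arrays 7.47 and 7.18, without overlap, as for 56.7% of all genes tested. The change was -0.79 ± 0.16, a fold of 1.73 (limma, adjusted p = 0.0233). In myelomonocytes the arrays overlapped, at 7.31 and 7.10 in wild type and 7.19 and 6.79 in the knockout (-0.22 ± 0.16, adjusted p = 0.436). The test of the difference between these differences did not pass (0.57 ± 0.23, adjusted p = 0.318). Leaving out either wild-type WKM array, or the knockout WKM array of replicate 2, ended the call (adjusted p up to 0.142).

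tnfsf18, which encodes GITRL, a co-stimulator of T cells, had the largest population difference among the 6 ligands tested in wild type. Wild-type arrays read 10.24 and 10.66 in myelomonocytes and 8.08 and 8.72 in WKM, a difference of 2.05 ± 0.26, or 4.14-fold (limma, adjusted p = 0.000959). In the knockout the myelomonocyte arrays read 9.63 and 10.25 and the WKM arrays 9.48 and 9.32. These lay closer together, and the difference of 0.54 ± 0.26 did not pass (adjusted p = 0.129). In WKM alone the knockout arrays were above the wild-type arrays by 1.00 ± 0.26, which missed the threshold (adjusted p = 0.0541) and ranged from 0.0207 to 0.262 over 19 alternatives. In myelomonocytes the genotype difference was -0.51 ± 0.26 (adjusted p = 0.263). The difference between the genotype differences, -1.51 ± 0.37, did not pass either (adjusted p = 0.154).

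tnfsf13b, which encodes the B cell survival factor BAFF, was lower in myelomonocytes than in WKM in both genotypes. Wild-type arrays read 6.30 and 6.55 in myelomonocytes and 7.67 and 8.07 in WKM (-1.45 ± 0.21, limma, adjusted p = 0.00170). Knockout arrays read 5.62 and 6.04 against 8.06 and 8.52 (-2.46 ± 0.21, adjusted p = 0.000131). The gap was thus 2.73-fold in wild type and 5.52-fold in the knockout. The genotype differences were -0.60 ± 0.21 in myelomonocytes (adjusted p = 0.112) and 0.42 ± 0.21 in WKM (adjusted p = 0.271), and the difference between them was -1.02 ± 0.30 (adjusted p = 0.200). None of these 3 passed in this fit, but all passed with the replicate number as a block (limma, adjusted p = 0.00871, 0.0354 and 0.0392). That block also raised the calls over all genes tested.

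tnfsf11, which encodes RANKL, the inducer of osteoclasts, was lower in wild-type myelomonocytes, at 6.35 and 6.41, than in wild-type WKM, at 7.01 and 6.67. The difference of -0.46 ± 0.14 passed (limma, adjusted p = 0.0378) but not with either wild-type myelomonocyte array, or the replicate 1 wild-type WKM array, left out (adjusted p up to 0.212). It also missed the threshold after quantile normalization (0.108) and with no filter on dim genes. In the knockout the populations overlapped, at 6.41 and 6.53 against 6.50 and 6.22. The genotype difference in WKM, -0.48 ± 0.14, did not pass (adjusted p = 0.0784).

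**Figure D2:**
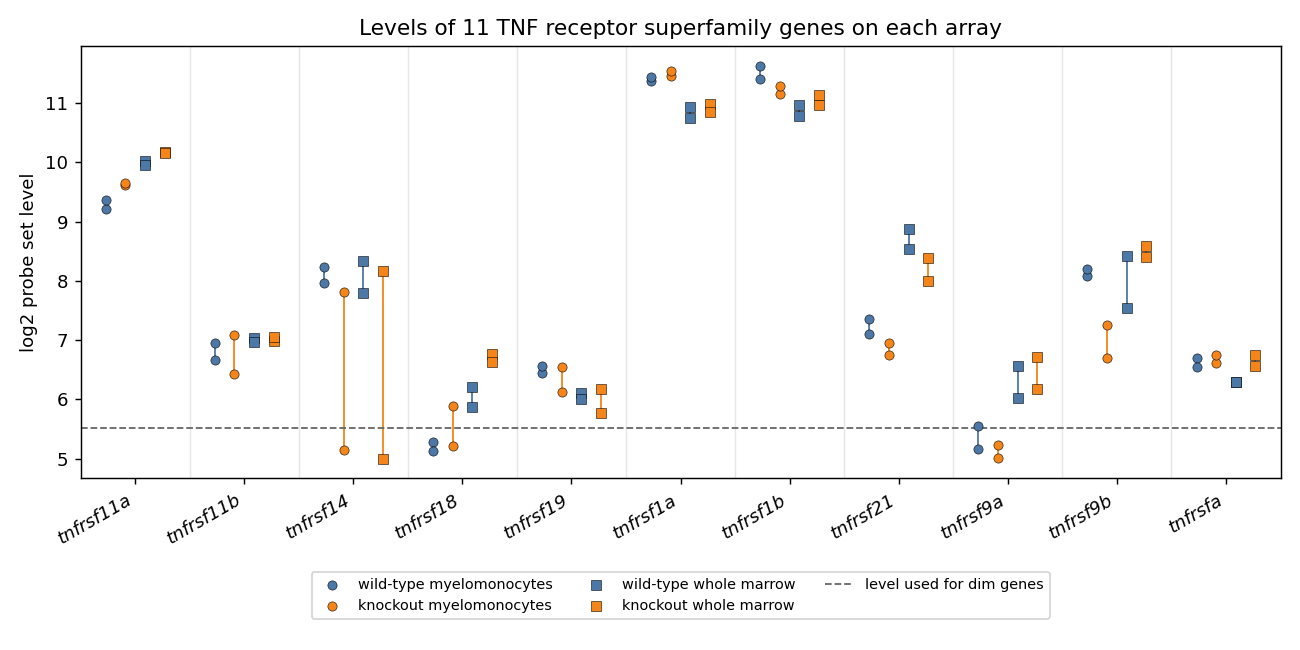
Each point is the log2 probe set level of a receptor gene on 1 array, with circles for myelomonocytes, squares for WKM, blue for wild type and orange for knockout. For tnfrsf1a the brighter of its 2 probe sets is shown. tnfrsf14 was at 5.14 and 5.0 on 1 knockout array of each population and at 7.79 to 8.34 on the 6 others, and tnfrsf21 was lower on every myelomonocyte array than on every WKM array.

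Among the receptors, tnfrsf9b, 1 of 2 zebrafish copies of the 4-1BB (CD137) co-stimulatory receptor gene, fell in knockout myelomonocytes. Wild-type arrays read 8.09 and 8.20 and knockout arrays 6.70 and 7.25. The change was -1.17 ± 0.28, a fold of 2.25 (limma, adjusted p = 0.0323). In WKM the knockout arrays, at 8.59 and 8.41, overlapped the wild-type arrays, at 7.54 and 8.42 (0.52 ± 0.28, adjusted p = 0.295). The difference between these differences, -1.69 ± 0.39, had the smallest p of the 17 genes in that test and did not pass (adjusted p = 0.137).

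The myelomonocyte call of tnfrsf9b did not hold under every alternative. Quantile normalization ended it (-1.15, limma, adjusted p = 0.0536). Leaving out either wild-type array, the replicate 1 knockout array or either knockout WKM array also ended it. In each of those fits fewer genes passed over all genes tested, and the difference of tnfrsf9b was -1.22 to -0.89. Leaving out both knockout replicate 2 arrays, a choice made after seeing the data, ended it as well, at -1.44. Between populations, tnfrsf9b did not differ in wild type (0.16 ± 0.28, limma, adjusted p = 0.669) and was lower in myelomonocytes in the knockout (-1.52 ± 0.28, adjusted p = 0.00320). In RefSeq gene order tnfrsf9b lies on the same chromosome as tnfrsf1b with 6 protein-coding genes between them, the closest pair among the 20 genes.

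The other copy, tnfrsf9a, was dim in myelomonocytes, at 5.16 and 5.56 in wild type and 5.24 and 5.01 in the knockout. WKM arrays read 6.03 and 6.56 in wild type and 6.71 and 6.18 in the knockout. tnfrsf9a was lower in myelomonocytes in both genotypes (-0.94 ± 0.23, limma, adjusted p = 0.0170, and -1.32 ± 0.23, adjusted p = 0.00282). Because the lower group lay near or below 5.52, background can hide part of the difference. Its WKM arrays brought the mean of tnfrsf9a over the 8 arrays above 5.52, and a stricter dim filter set this gene aside. The wild-type call was lost without wild-type myelomonocyte replicate 1 or WKM replicate 2 (adjusted p up to 0.101).

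tnfrsf14, which encodes HVEM, a receptor that can stimulate or restrain lymphocytes, varied within the knockout rather than between the groups. Wild-type arrays read 7.97 and 8.24 in myelomonocytes and 7.79 and 8.34 in WKM. Knockout arrays read 7.81 and 5.14 in myelomonocytes and 8.16 and 5.0 in WKM. The low array was replicate 2 in each population, and replicate 1 of each lay within the range of the 4 wild-type arrays, 7.79 to 8.34. The genotype differences therefore had wide errors and did not pass (-1.63 ± 1.05, limma, adjusted p = 0.365, and -1.48 ± 1.05, adjusted p = 0.437). A fitted mean of the knockout groups, 6.48 ± 1.88 and 6.58 ± 2.24 (SD, n = 2), describes neither replicate.

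In RefSeq gene order the 10 nearest tested genes around tnfrsf14, 5 on each side, did not share its gap. The nearest had 4 and 3 protein-coding genes between them and tnfrsf14, and the farthest 11 and 22. No directly adjacent gene was thus tested. Between the knockout replicates they differed by -0.89 to 0.67 in myelomonocytes and by -1.01 to 0.45 in WKM. The lowest of them in both populations was si:dkey-23c22.5, the second tested gene to 1 side, whose levels were near 5.52 on most arrays (5.01 to 7.06). Several others, among them b3gnt7l, rassf11 and porcnl, lay at 5.35 to 6.29 on the knockout replicate 1 arrays. Such levels leave little room to see a fall as large as that of tnfrsf14.

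**Figure D3:**
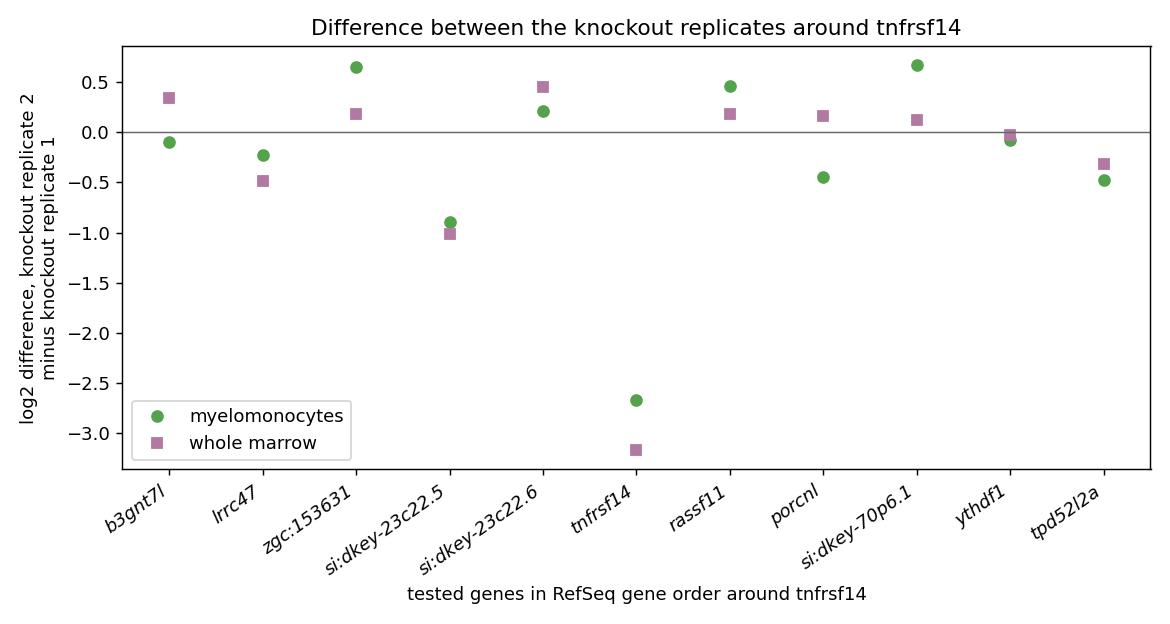
Points are log2 differences between the 2 knockout arrays of a population, replicate 2 minus replicate 1, for tnfrsf14 and the 5 nearest tested genes on each side in gene order, with circles for myelomonocytes and squares for WKM. tnfrsf14 lies at -2.67 and -3.17, and the 10 others, none directly adjacent to it, between -1.01 and 0.67.

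tnfrsf18, which encodes GITR, the receptor of the tnfsf18 product, was dim in myelomonocytes, at 5.28 and 5.13 in wild type and 5.21 and 5.89 in the knockout. WKM arrays read 5.88 and 6.21 in wild type and 6.77 and 6.63 in the knockout. tnfrsf18 was thus lower in myelomonocytes. Its WKM arrays brought its mean over the 8 arrays above 5.52, and a stricter dim filter set it aside. Because the myelomonocyte arrays lay near or below 5.52, background can hide part of the difference. The population differences were -0.84 ± 0.22 in wild type (limma, adjusted p = 0.0185) and -1.15 ± 0.22 in the knockout (adjusted p = 0.00357). The first was lost without replicate 2 of either wild-type group (adjusted p up to 0.106). The genotype difference in WKM, 0.65 ± 0.22, did not pass (limma, adjusted p = 0.106). It passed with only the arrays compared, where 8.45% of all genes were called.

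tnfrsf21, which encodes death receptor 6, had the largest population difference among the 11 receptors in wild type. Wild-type arrays read 7.10 and 7.35 in myelomonocytes and 8.88 and 8.54 in WKM (-1.48 ± 0.18, limma, adjusted p = 7e-04). Knockout arrays read 6.95 and 6.75 against 8.39 and 7.99 (-1.34 ± 0.18, adjusted p = 0.000716). The populations did not overlap in either genotype, as for 73.4% of all genes tested in wild type and 73.3% in the knockout. In each population the knockout arrays lay below the wild-type arrays, but by less than the test could call (-0.38 ± 0.18, adjusted p = 0.217, and -0.53 ± 0.18, adjusted p = 0.110).

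The osteoclast receptor gene tnfrsf11a, which encodes RANK, was also lower in myelomonocytes, by -0.70 ± 0.10 in wild type (limma, adjusted p = 0.00138) and -0.53 ± 0.10 in the knockout (adjusted p = 0.00314). Its arrays read 9.21 and 9.37 in wild-type myelomonocytes, 9.61 and 9.65 in knockout myelomonocytes, 10.02 and 9.95 in wild-type WKM and 10.17 and 10.15 in knockout WKM. The genotype difference in myelomonocytes, 0.34 ± 0.10, missed the threshold (limma, adjusted p = 0.0602). It passed with a variance trend and with a stricter dim filter, where 14.8% and 14.5% of all genes were called. tnfrsf11b, which encodes osteoprotegerin, the decoy receptor of RANKL, lay between 6.43 and 7.09 and passed no comparison (adjusted p from 0.322 to 0.957).

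The genes of the receptors for TNF itself went the other way between populations. tnfrsf1a, of TNF receptor 1, which carries a death domain, read 11.37 and 11.44 in wild-type myelomonocytes and 10.74 and 10.93 in wild-type WKM (0.57 ± 0.11, limma, adjusted p = 0.00493). In the knockout it read 11.45 and 11.54 against 10.99 and 10.85 (0.58 ± 0.11, adjusted p = 0.00339). Its second, dimmer probe set read 8.36 to 8.45 on the 4 myelomonocyte arrays and 7.19 to 7.56 on the 4 WKM arrays, in the same direction. Without both knockout replicate 2 arrays the knockout call of tnfrsf1a was lost (adjusted p = 0.0730).

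tnfrsf1b, of TNF receptor 2, read 11.41 and 11.63 in wild-type myelomonocytes and 10.78 and 10.97 in wild-type WKM (0.64 ± 0.13, limma, adjusted p = 0.00606). In the knockout the arrays, at 11.15 and 11.29 against 11.14 and 10.96, were nearly level (0.17 ± 0.13, adjusted p = 0.303). Neither TNF receptor gene differed with genotype beyond the test in either population (adjusted p from 0.171 to 0.696).

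The last 2 receptor genes passed no comparison in these fits. tnfrsf19, which encodes TROY, a receptor studied in the nervous system and in hair follicle, lay between 5.77 and 6.56 (adjusted p from 0.0783 to 0.919). tnfrsfa, a receptor gene known by this name in zebrafish, lay between 6.30 and 6.75 (adjusted p from 0.0501 to 0.844). The smallest adjusted p of each was in the wild-type population comparison, where the myelomonocyte arrays were the higher ones. Each passed there under several alternatives, quantile normalization among them.

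**Figure D4:**
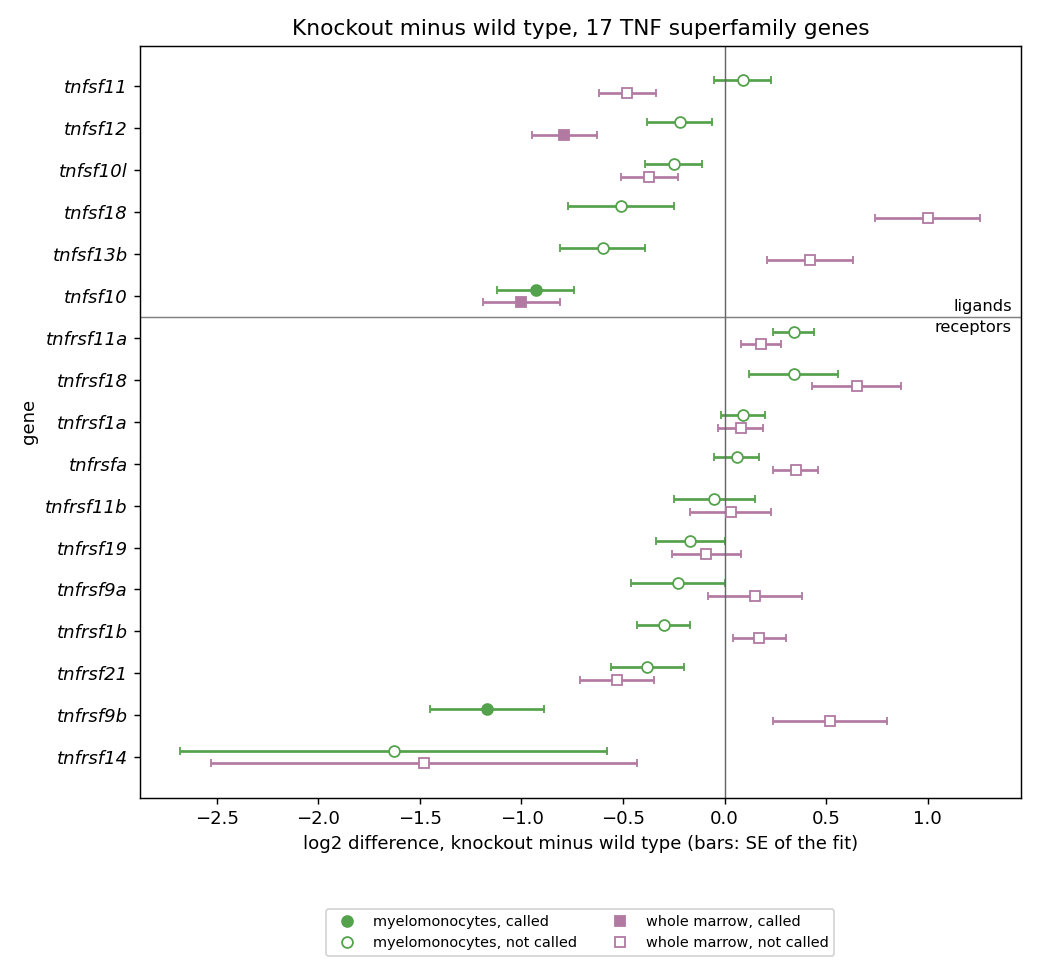
Points are log2 differences, knockout minus wild type, of the 17 genes tested, with bars of 1 SE from the fit, circles for myelomonocytes and squares for WKM, and filled points for adjusted p under 0.05. tnfsf10 lies at -0.93 and -1.0 and is filled in both, while tnfrsf9b (-1.17) and tnfsf12 (-0.79) are filled in 1 population each, and the bars of tnfrsf14 span 1.05 on each side.

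Taken over the family, genotype calls were few and near the background. In myelomonocytes 2 of 17 genes tested fell (tnfsf10 and tnfrsf9b) and 0 rose, which is 11.8% against 12.4% of all genes called, with 5.51% called lower and 6.85% higher. The median difference of the 17 was -0.23, beside 0.01 over all genes tested, with 12 below and 5 above 0. In WKM 2 fell (tnfsf10 and tnfsf12) and 0 rose, again 11.8%, against 9.28% of all genes called, with 4.55% called lower and 4.73% higher. The median there was 0.08, with 7 below and 10 above 0. The test of the difference between the genotype differences called 0 of the 17 in limma, beside 0.276% of all genes. At an unadjusted p under 0.05 were 6 of the 17, beside 1924 of all 13774 genes. The first count dropped without either wild-type myelomonocyte array, knockout myelomonocyte replicate 2 or either knockout WKM array. The second count dropped without any single WKM array and rose without either knockout myelomonocyte array. Calls over all genes dropped in each of those fits too, except that WKM calls rose without a knockout myelomonocyte array.

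**Figure D5:**
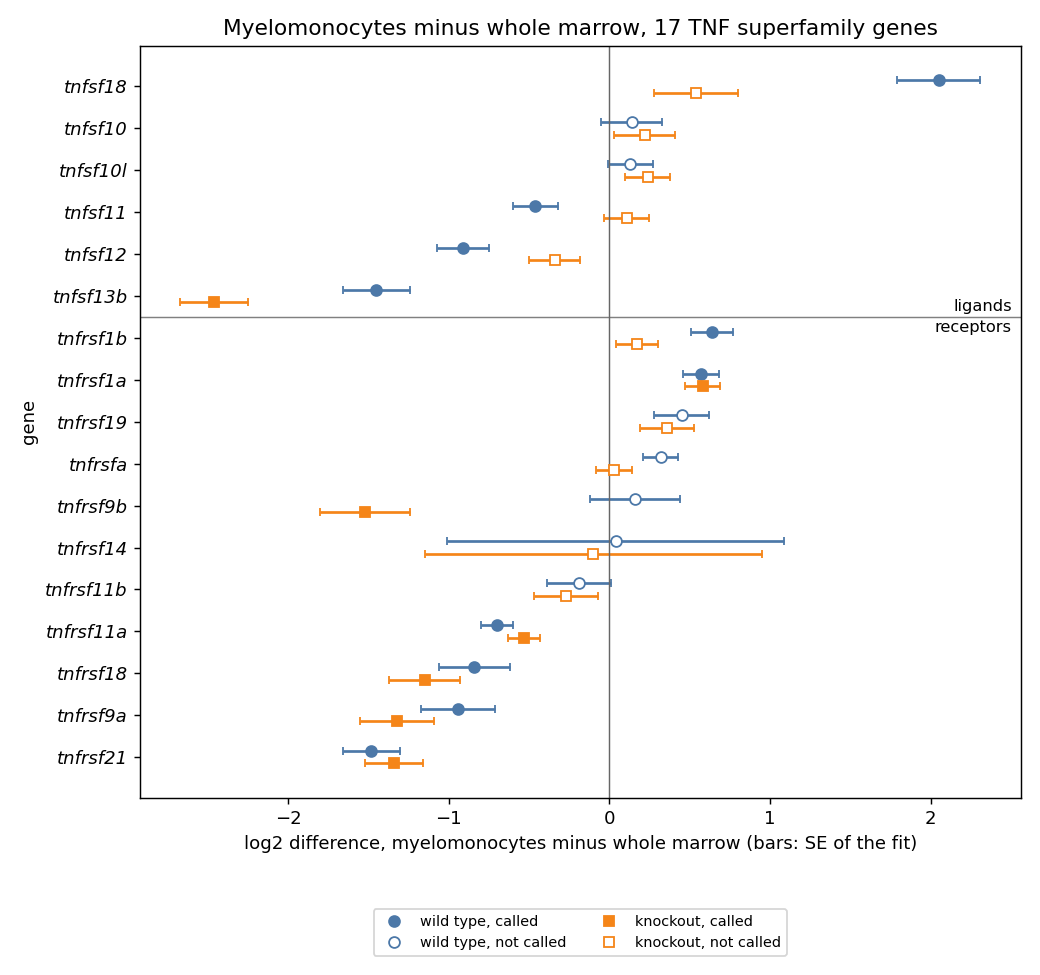
Points are log2 differences, myelomonocytes minus WKM, of the 17 genes tested, with bars of 1 SE from the fit, blue circles for wild type and orange squares for knockout, and filled points for adjusted p under 0.05. tnfsf18 lies at 2.05 in wild type and 0.54 in the knockout, tnfsf13b at -1.45 and -2.46, and tnfrsf9b at 0.16 and -1.52.

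Population differences were more common. In wild type 10 of 17 genes differed between myelomonocytes and WKM, 3 higher (tnfsf18, tnfrsf1a and tnfrsf1b) and 7 lower (tnfsf11, tnfsf12, tnfsf13b, tnfrsf9a, tnfrsf11a, tnfrsf18 and tnfrsf21). This is 58.8%, against 35.6% of all genes called, 15.5% higher and 20.1% lower. tnfsf12 was lower there by -0.91 ± 0.16 (limma, adjusted p = 0.00396) and in the knockout by -0.34 ± 0.16, which did not pass (adjusted p = 0.127). In the knockout 7 of 17 differed, which is 41.2% against 44.1% of all genes, 21.5% higher and 22.6% lower. Of these tnfrsf1a was higher, and tnfsf13b, tnfrsf9a, tnfrsf9b, tnfrsf11a, tnfrsf18 and tnfrsf21 were lower in myelomonocytes. Among those lower in both genotypes, tnfrsf9a and tnfrsf18 passed the dim filter through their WKM arrays. A stricter dim filter set both aside and called 9 of 15 genes in wild type and 5 of 15 in the knockout. Over all genes 40.1% and 49% were called there. The wild-type count of 10 moved with each single array left out, except either knockout WKM array. The knockout count of 7 moved only without a knockout myelomonocyte array, and rose there. Calls over all genes moved in every such fit.

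Other genes of the pathway were followed in 4 lists. Of 13 superfamily genes with other names, or partners of them, 11 were tested, and 1 rose and 1 fell in knockout myelomonocytes, 18.2% against 12.4% of all genes called. Besides hdr, which fell, fas, the death receptor of cytotoxic killing, rose from 8.08 ± 0.09 to 8.79 ± 0.12 (0.71 ± 0.12, limma, adjusted p = 0.00903). Of all genes tested in WKM, 9.28% were called in either direction and 4.73% were called higher. In knockout WKM 3 of the 11 rose and 0 fell, which is 27.3%. With so few genes this describes these 11 only. relt, a receptor of lymphoid tissue, rose from 6.55 ± 0.09 to 7.36 ± 0.22 (0.81 ± 0.14, adjusted p = 0.0140). tnfb, a zebrafish TNF gene, rose from 9.64 ± 0.38 to 10.46 ± 0.31 (adjusted p = 0.0416), and ngfra, a nerve growth factor receptor gene, by 0.39 ± 0.10 (adjusted p = 0.0428).

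Of 12 genes of TRAF adaptors and their partners, 3 fell and 0 rose in knockout myelomonocytes, which is 25% against 12.4% of all genes called. Of all genes tested 5.51% were called lower there. The median of the 12 was -0.25, beside 0.01 over all genes tested. traf3, a brake on non-canonical NF-kB, went from 8.52 ± 0.01 to 8.05 ± 0.05 (SD, n = 2), a change of -0.47 ± 0.10 (limma, adjusted p = 0.0186). traf5, an adaptor of co-stimulatory receptors, went from 7.93 ± 0.03 to 7.24 ± 0.21 (-0.68 ± 0.12, adjusted p = 0.0103). traip, a ubiquitin ligase named for TRAF binding and known for DNA replication, went from 6.08 ± 0.05 to 5.45 ± 0.01 (-0.62 ± 0.12, adjusted p = 0.0139). Its knockout level lay below 5.52, so background can hide part of that change. In WKM 0 of the 12 passed in limma, with 3 at an unadjusted p under 0.05, beside 3407 of all 13774 genes. There traf3, traf5 and traip differed by 0.22, 0.01 and -0.01.

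Of 19 death domain adaptors and caspases tested, 0 passed in myelomonocytes in limma. At an unadjusted p under 0.05 were 5 of them, beside 3754 of all 13774 genes. In WKM 1 rose, casp9, the initiator caspase of the mitochondrial route, from 9.40 ± 0.24 to 9.98 ± 0.06 (limma, adjusted p = 0.0370), which is 5.3% of the list against 9.28% of all genes. Of 33 NF-kB factors, kinases and inhibitors, 1 rose and 2 fell in myelomonocytes, 9.1% against 12.4% of all genes called. rbck1, of the linear ubiquitin ligase, rose by 0.54 ± 0.10 (adjusted p = 0.0135). tnfaip8l2b, a zebrafish relative of an inhibitor of immune activation, changed by -0.58 ± 0.11 (adjusted p = 0.0127) and nfkb2, the non-canonical NF-kB precursor, by -0.46 ± 0.12 (adjusted p = 0.0493). In WKM 1 of the 33 rose and 1 fell, 6.1% against 9.28% of all genes. There bcl3, a nuclear cofactor of NF-kB, rose from 6.96 ± 0.13 to 7.97 ± 0.35 (adjusted p = 0.0123), and ikbkb, of the IkB kinase, fell from 9.45 ± 0.02 to 8.94 ± 0.01 (adjusted p = 0.0140).

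These pathway calls rested on 2 arrays per group. The 8 in myelomonocytes were fas, hdr, traf3, traf5, traip, rbck1, tnfaip8l2b and nfkb2. Each lost its call with the replicate 1 wild-type array left out, which leaves 1 array in that group. Their differences there were 0.54 to 0.65 for those that rose and -0.96 to -0.44 for those that fell. Each of the 6 in WKM (relt, tnfb, ngfra, casp9, bcl3 and ikbkb) lost its call without the replicate 1 wild-type WKM array. In both of these fits fewer genes passed over all genes tested, so the losses are not particular to these genes. nfkb2 lost its call in 13 of 19 alternatives, among them median centring (0.0611), no filter on dim genes (0.0697) and array weights (0.0654). tnfb and ngfra lost theirs in 10 of 19 each, among them no filter on dim genes (0.0510 and 0.0666). With the mean of its probe sets in place of the brightest, the rise of fas in myelomonocytes was 0.46 (adjusted p = 0.0223).

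Some markers of other cell types also differed with genotype in the same arrays. Over all genes 12.4% were called in myelomonocytes and 9.28% in WKM, so a single marker in such short lists cannot show whether a cell type shifted. In knockout myelomonocytes 8 of 11 erythroid markers fell, and the list's mean log2 level was 9.30 and 9.43 against 10.22 and 10.29 in wild type. Of 7 monocyte and macrophage markers 2 fell, with list means of 8.90 and 9.23 against 9.50 and 9.59. Of 12 kidney tubule and podocyte markers 4 rose, with list means of 8.22 and 8.30 against 7.76 and 8.02. Of 10 T and NK cell markers tested there, 2 rose (lck by 1.80 and sh2d1ab by 1.13) and 1 fell (ccr9a, -0.55), with list means of 6.86 and 6.64 against 6.56 and 6.59. Of 10 B cell markers 1 rose (cd22, 1.94) and 1 fell (cd37, -0.70). Of the 5 thrombocyte and 9 endothelial and stromal markers, 1 each fell. In knockout WKM 2 of 10 B cell markers fell, with list means of 9.06 and 9.41 against 9.59 and 9.68, and 1 of 10 T and NK cell markers tested rose and 3 fell. There 2 of 7 monocyte and macrophage markers also fell, mpeg1.2 (-0.78) and c1qb (-0.80), with list means of 9.92 and 9.69 against 10.04 and 10.00. Of the erythroid, thrombocyte, endothelial and stromal, and kidney lists, 1 marker each fell there (gypc, nfe2, cxcl12b and slc12a3). Neutrophil markers did not pass in either population (0 of 7 in limma, with 0 in myelomonocytes and 2 in WKM at an unadjusted p under 0.05). Over all 13774 genes, 3754 in myelomonocytes and 3407 in WKM had such a p. The part of these marker differences in the results for tnfsf10, tnfsf12, tnfrsf9b and hdr was not tested.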

How the data were processed

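The authors deposited 1 log2 value per probe set and array, from biotin-labelled cRNA made from 200 ng of total RNA per the labels' protocols. That the deposited values are log2 was read from their range (array medians 5.49 to 5.54). The deposited values were not changed further. Their normalization and scan batches remain not given in the sources used here. Gene names came from the platform annotation (20806 with 1 symbol, 855 with several, 53551 with none here), and all 20 member genes matched a current gene by Entrez ID in the RefSeq table of assembly GRCz12tu. The brightest probe set stood for each gene. Genes with a mean over 8 arrays at or above 5.52 were tested (13774, with 5486 dim ones set aside).

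All 8 arrays entered 1 limma fit (limma 3.58.1, R 4.3.3) with a mean per group, giving 4 residual and 4 prior degrees of freedom. P-values were two-sided and Benjamini-Hochberg adjusted over the 13774 genes, with 0.05 as the threshold of a call. Errors of differences are SEs of the fit, and those of levels are SDs over 2 arrays, whose small number limits the precision. The 5 comparisons were the genotype difference in each population, the difference between these, and the population difference in each genotype. These comparisons share arrays. Members with a genotype call, and those whose pattern the text turns on, are given array by array, and called pathway genes are named. Members, pathway lists and marker lists were chosen with earlier results of these data known. Alternatives covered normalization, scaling, the dim filter, probe set choice, arrays in the fit, weights, variance trend, a replicate block and each array left out.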

Additional observations from a re-analysis of the deposited data

How the results depend on the processing

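None of the 41 single-gene results followed changed direction under any alternative. This says little, because the weights, variance trend, replicate block and dim filter leave a difference unchanged, as do arrays outside the comparison. Where the arrays of 2 groups do not overlap, leaving 1 out cannot change the sign either. Among members not followed, up to 4 of 14 changed sign. This was in the difference between the genotype differences, without knockout myelomonocyte replicate 1. All 18 genotype calls followed, those of members and of pathway genes, were lost under at least 1 alternative. Of the 17 population calls, 4 were lost under at least 1 (tnfsf11, tnfrsf9a and tnfrsf18 in wild type and tnfrsf1a in the knockout). The 6 other results had no call to lose. With a variance trend or a stricter dim filter, 3 members were called in myelomonocytes by genotype, tnfrsf11a being added. There 14.8% and 14.5% of all genes were called. The main count of members called in myelomonocytes by genotype, 2, became 1 after quantile normalization, where 13.2% of all genes were called. It was no higher with any single array left out. In WKM the count of 2 became 4 with only the arrays compared, where 8.45% of all genes were called. It moved both ways with single arrays left out. Leaving out both knockout replicate 2 arrays, chosen after seeing the data, lowered both counts, and calls over all genes became fewer too. In each fit without 1 array the remaining array of the group was assumed to vary like the other groups. Population counts stayed within 1.5 times the main count in all 20 alternatives.

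Replicate numbers are shared across groups, but the labels do not say that a number marks shared fish. Deviations of same-numbered arrays correlated at 0.41 between the wild-type populations, 0.27 between the knockout populations and 0.00 to 0.12 between genotypes. With the replicate block, 3 members were called in myelomonocytes, tnfsf13b among them (limma, adjusted p = 0.00871). In WKM 4 were called, tnfsf13b (0.0354) and tnfsf18 (0.0207) among them. The block also called more genes over all genes tested, 15.1% in myelomonocytes and 11.4% in WKM, against 12.4% and 9.28% in the main fit. In the difference between the genotype differences the block called 1 member, tnfsf13b (0.0392), beside 0.559% of all genes. The replicate block within genotype, chosen after seeing the data, called 1 there too, tnfsf13b again (0.0288), beside 1.84% of all genes. Population counts with the replicate block were 11 in wild type and 8 in the knockout, beside 38.8% and 46.7% of all genes. Log2 levels near 5.52 limit what could be seen of tnfrsf18, tnfrsf9a and the 3 dim ligand genes.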

Other observations

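The pattern of tnfrsf14 was looked for in all 13774 genes after its values were seen. In knockout replicate 2 of both populations tnfrsf14 lay at least 2.64 log2 units below each of the 6 other arrays, the widest such gap of any gene tested. At a gap of 2 or more, tnfrsf14 was the only gene lower on both knockout replicate 2 arrays, and 0 genes were higher there. The same search gave 1 lower and 0 higher genes for knockout replicate 1, and 0 of either kind for each wild-type replicate number. The labels do not say whether same-numbered samples of the 2 populations came from the same fish.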
